A study of Arabidopsis thaliana with 12 samples.

Results

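Transcripts of 4 nuclear genes for ribosomal proteins of the plastid were followed in dark-treated Arabidopsis thaliana: AT1G64510 (S6) and AT3G13120 (S10) of the small subunit, and AT4G01310 (L5) and AT3G54210 (L17) of the large subunit. They were chosen as array features that the platform's table pairs with exactly 1 gene, and each gene had 1 such feature, so they make up 4 of the 692 features with 1 gene and of the 3439 features in all. They are 4 of the 6 plastid ribosomal proteins measured by such a feature, and they were chosen with earlier results of these data known. The 12 arrays comprised 6 of flu and 6 of wild-type (WT) plants, both of ecotype Landsberg and both kept in the dark for 12 h. The mutant carries a defect in FLU, a protein that restrains the synthesis of chlorophyll. Tissue, plant age, the mutant allele, the array type and the source of each array are unstated in the labels, so p-values measure only how much these arrays vary, which may be technical. FLU itself had no feature with 1 gene and could not check the labels, and the 1 measured gene among 10 markers of leaf mesophyll, LHB1B2, averaged 18.4 ± 1.60 in flu and 17.5 ± 2.98 in WT (deposited intensity, SD, n = 6 each), a direction that turned on the log2 scale used below, at -0.26 over 12 arrays and 0.28 with couples averaged and strips centred (limma adjusted p = 0.078 and 0.35).

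Plastids translate their own small genome on ribosomes of a bacterial type. The ribosomal RNAs and part of the ribosomal proteins are encoded in the plastid, and the rest, these 4 among them, are encoded in the nucleus, made in the cytosol and imported. Without FLU, dark-grown or dark-kept seedlings build up protochlorophyllide, the precursor that light converts on the way to chlorophyll, and on return to light this pigment produces singlet oxygen in the plastid. Plastid ribosomal proteins are known to be needed for making the photosynthetic apparatus, and loss of many of them is lethal to the embryo or gives pale plants.

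Each array gave a linear intensity per feature with an upper limit of 100, whose scaling is unknown. Array medians ran from 0.426 to 0.442 in flu and from 0.443 to 0.491 in WT. Intensities were raised to a floor of 0.0236 where lower, taken to log2 and quantile normalised, and log2 changes below are flu minus WT on that scale unless called deposited. Features stand for different spots, so intensities are compared between genotypes and not between genes. Within a genotype, arrays resembled each other most in couples, as they are called here (array 1 with 2, 3 with 4 and 5 with 6), although the labels name no such couples. The log2 change also varied with position in the feature numbering, which was divided into 48 recurring strips of 6 neighbouring numbers. From strip to strip the mean log2 change ran from -0.67 to 0.61. A gene is therefore said to have risen or fallen where limma's adjusted p was below 0.05 with the same sign in 3 analyses, over 12 arrays, with couples averaged, and with couples averaged and each strip's mean deviation subtracted from each array (strips centred).

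L5 was the 1 gene of the 4 that rose, and the other 3 had lower values in flu. The 3 analyses leave out the pairing of flu and WT arrays by number. With a block by array or couple number in each, S10 also passed all 3 (limma adjusted p = 0.019, 0.025 and 0.010), and S6 and L17 did not. Of all 3439 features 1966, 1306 and 1177 passed in those blocked fits. In the deposited intensities the flu mean was 1.83 times the WT mean for L5, and 0.562, 0.561 and 0.574 times it for S6, S10 and L17. In such bulk RNA a change in the share of cells that make a transcript and a change in its amount per cell cannot be told apart. Over 12 arrays all 4 passed, 1 higher and 3 lower. Of all features 52.2% passed in that analysis (23.0% higher and 29.2% lower, so that 44.0% of the passes were higher, or 34.0% with deposited values), and 49.7% of the features with 1 gene did, so passing there is common. With couples averaged 2 of the 4 passed (34.7% of all features), with couples averaged and strips centred 3 of the 4 (27.8% of all features), and in all 3 analyses 1 of the 4, where 19.3% of all features and 19.9% of those with 1 gene did. Strip centring subtracts a strip's mean, so it can by itself make a feature pass. For example, a feature at 0 on every array had a log2 change of -0.51 with couples averaged and strips centred (limma adjusted p = 0.047). The median log2 change of the 4 was -0.56, beside -0.04 over all features, and with couples averaged and strips centred it was -0.59, beside -0.05. Those medians rest on few genes, since with L34 (AT1G29070), the other plastid ribosomal protein measured above the floor, they were -0.51 and -0.17 over 5 genes.

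**Figure D1:**
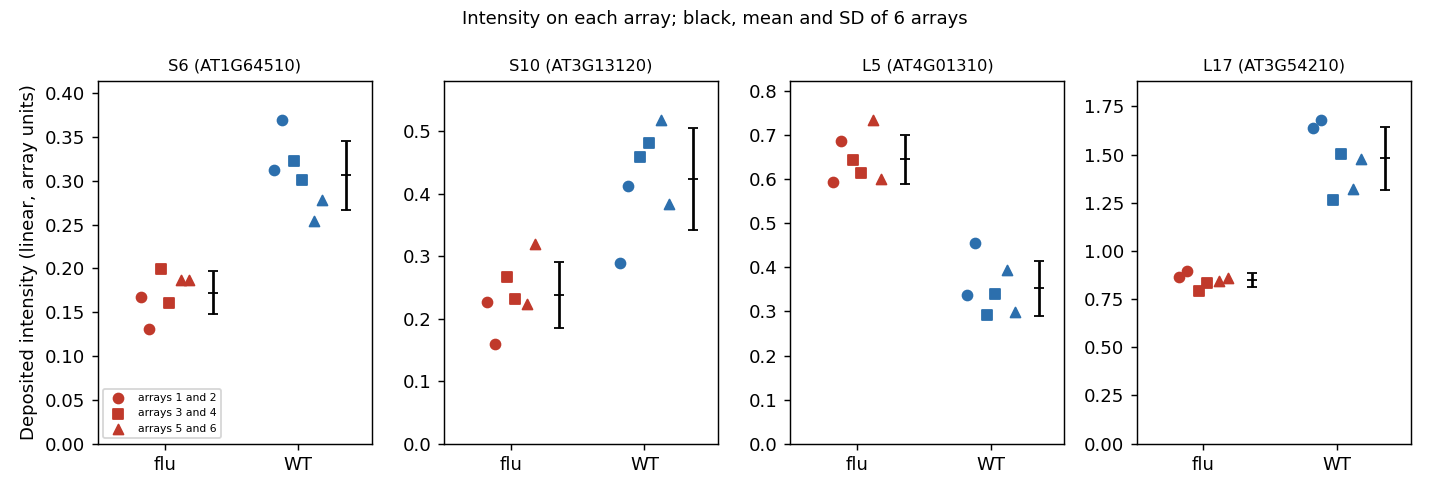
Deposited linear intensity of S6, S10, L5 and L17 on each array, with flu (red) left of WT (blue), couples of arrays as symbols and the mean and SD of 6 arrays in black. The 6 flu arrays lie above the 6 WT arrays for L5 and below them for S6 and L17, and for S10 5 of 6 flu arrays lie below the lowest WT array. Of all features, 12.5% have all flu arrays above all WT arrays and 24.6% have them all below.

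L5 (AT4G01310) is a large-subunit protein that in bacterial ribosomes binds the smallest ribosomal RNA in the central protuberance. Its intensity in flu ran from 0.595 over a median of 0.629 to 0.735, and in WT from 0.292 over a median of 0.338 to 0.455. The 6 flu arrays were all above the 6 WT arrays, a separation seen for 12.5% of all features. The log2 change was 1.04 ± 0.14 (SE; limma adjusted p = 7.0e-05 over 12 arrays, or 0.0077 once couples were averaged), and 1.25 ± 0.16 with couples averaged and strips centred (limma adjusted p = 0.0042). Between arrays of the same number the gain ran from 0.64 for number 2 to 1.41 for number 3, so it was present in 6 of 6 pairs. How many of all features had 6 pairs of one sign is not given here, for L5 or for the genes below. WT arrays were the more scattered, with a coefficient of variation of 17.6% against 8.55% in flu, and the 3 couples of flu averaged 0.640, 0.629 and 0.667 while those of WT averaged 0.396, 0.315 and 0.346.

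S6 (AT1G64510) is a protein of the platform of the small subunit in bacterial ribosomes. Its intensity in flu ran from 0.131 over a median of 0.177 to 0.200, and in WT from 0.255 over a median of 0.307 to 0.370. All 6 flu arrays lay below the lowest WT array, as for 24.6% of all features. The log2 change was -0.51 ± 0.12 (SE; limma adjusted p = 0.0029) over 12 arrays. With couples averaged limma's adjusted p was 0.054, or 0.116 in a fit blocked by couple number, and with strips centred as well the change was -1.01 ± 0.20 (limma adjusted p = 0.014), so that it missed the threshold in 1 of the 3 analyses. With couples averaged and strips centred, limma's adjusted p for S6 became 0.053 once flu arrays 1 and 2 were left out and 0.060 once flu arrays 3 and 4 were. S6 was lower in flu in 6 of 6 pairs of the same number, and unevenly so: the difference was -1.18 and -0.63 for numbers 2 and 1, and -0.12 and -0.26 for numbers 5 and 6. WT couple means of 0.341, 0.312 and 0.266 and flu couple means of 0.149, 0.180 and 0.187 lay nearest each other in the couple of arrays 5 and 6. Normalisation made the difference smaller, since the deposited values gave a log2 change of -0.84. It did the same for S10 and L17, at -0.84 and -0.80 as deposited. For L5 it made the change larger, from 0.89 as deposited.

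S10 (AT3G13120) lies in the head of the small subunit in bacterial ribosomes. Its intensity in flu ran from 0.160 over a median of 0.229 to 0.320, and in WT from 0.288 over a median of 0.436 to 0.518. The groups overlapped, because flu array 6, at 0.320, stood above WT array 1, at 0.288. The log2 change was -0.61 ± 0.17 (SE; limma adjusted p = 0.0097) over 12 arrays. With couples averaged limma's adjusted p was 0.053, or 0.025 in a fit blocked by couple number, and with strips centred as well the change was -1.00 ± 0.16 (limma adjusted p = 0.0073). S10 had the widest scatter of the 4 within a genotype, with coefficients of variation of 22.3% in flu and 19.3% in WT. Its differences between arrays of the same number ran from -1.13 for number 2 to -0.10 for number 6 and were below 0 in 6 of 6 pairs. Arrays of one couple did not agree closely on it, as numbers 1 and 2 gave -0.12 and -1.13, and numbers 5 and 6 gave -1.00 and -0.10.

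L17 (AT3G54210) is a large-subunit protein that sits near the exit of the peptide tunnel in bacterial ribosomes. Its intensity in flu ran from 0.793 over a median of 0.853 to 0.897, and in WT from 1.26 over a median of 1.49 to 1.68. All flu arrays were below all WT arrays, as for 24.6% of all features. The scatter was the smallest of the 4, with coefficients of variation of 4.08% in flu and 11.1% in WT. The log2 change was -0.71 ± 0.08 (SE; limma adjusted p = 3.3e-05 over 12 arrays, or 0.010 once couples were averaged). With couples averaged and strips centred it was -0.17 ± 0.16 (limma adjusted p = 0.47). All 6 same-numbered pairs were lower in flu, with differences of -0.89 to -0.50.

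**Figure D2:**
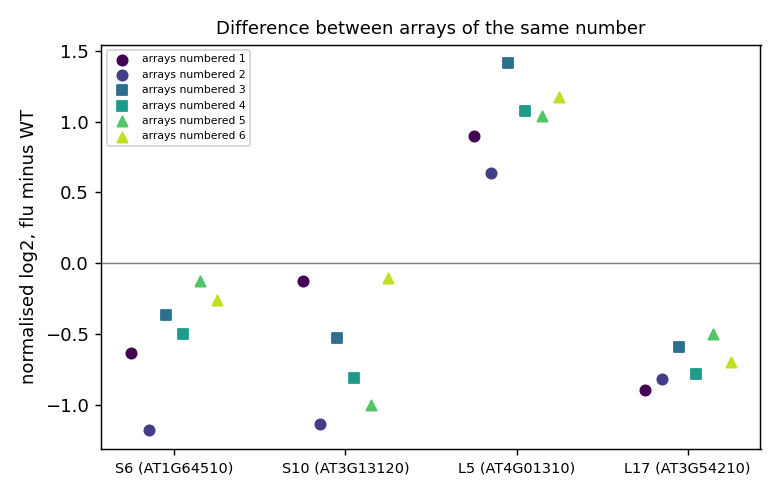
Normalised log2 value of the flu array minus that of the WT array with the same number, for each of the 6 numbers and 4 genes, with couples as symbols. All 6 differences are above 0 for L5 and all are below 0 for S6, S10 and L17, and those of S6 and S10 come close to 0 in some numbers (-0.12 and -0.10). The share of all features with 6 differences of one sign is not given here. In deposited intensities 12.5% of all features have all flu arrays above all WT arrays and 24.6% have them all below.

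The mean log2 change of each gene's strip was taken without the gene itself, and it had the sign of the gene's own change for L17 alone of the 4. L17 lay in a strip whose other 68 features averaged a log2 change of -0.54, with 38 of them lower and 4 higher among those passing, and 54.4% of those features stood above L17. S6, S10 and L5 lay in strips of the opposite sign. The 70 other features around S6 averaged 0.51, the 68 around S10 averaged 0.40, and 90.0% and 89.7% of them stood above the gene. L5 had 70 such neighbours averaging -0.23, and 4.29% of them stood above it. S6, S10 and L5 thus differed from the means of their strips by -1.02, -1.02 and 1.27 on the log2 scale, and L17 by -0.17. The part of spot position in these differences was not tested. Strip means taken over 2, 3 or 12 numbers, or over 6 numbers shifted by 3, gave log2 changes of 1.11 to 1.32 for L5, -1.07 to -0.73 for S6, -1.11 to -0.82 for S10 and -0.27 to -0.085 for L17 with couples averaged. L5, S6 and S10 passed under each of these 4 choices and L17 under none (limma adjusted p = 0.42 to 0.73). With unshifted strips of 6 numbers 27.8% of all features passed, and the share under these 4 choices is not given here. The choices subtract means of overlapping sets of features from the same arrays, so they are not independent of each other.

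**Figure D3:**
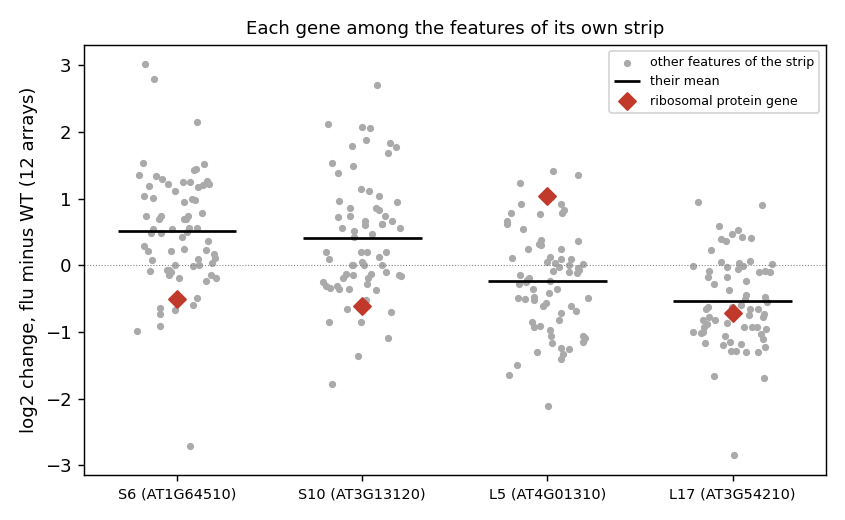
Log2 change (flu minus WT, 12 arrays) of S6, S10, L5 and L17 (red diamonds) beside all other features of the same recurring strip of feature numbers (grey points, mean as a black line). L17 at -0.71 lies near its strip's mean of -0.54, whereas S6 and S10 lie below strip means of 0.51 and 0.40, and L5 lies above one of -0.23.

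Across the 12 normalised arrays S6, S10 and L17 had positive Pearson correlations with each other (S6 with L17 at 0.833, S6 with S10 at 0.680, S10 with L17 at 0.585), and L5 had negative ones with each (-0.669 with S6, -0.689 with S10, -0.813 with L17). These values hold the genotype difference and share arrays and normalisation. With each genotype's mean removed, the correlation of S6 was 0.188 with S10 and 0.328 with L17, those of L5 were 0.366 with S6, -0.0186 with S10 and 0.440 with L17, and that of S10 with L17 was -0.530. With strips centred, S6 and S10 correlated at 0.890, and L5 at -0.812 and -0.846 with them, while L17 correlated at 0.609 with S6, 0.407 with S10 and -0.489 with L5. These values again hold the genotype difference.

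The genes with the most similar profiles over the 12 arrays were taken by Pearson correlation from 608 other features with 1 gene and no value below the floor. For L5 they were PRA1.B6 (AT5G07110), of a family of prenylated Rab acceptors, at 0.952, AT2G30100 at 0.942 and AT4G19900 at 0.939, and AT4G27390 ran opposite at -0.951. For L17 they were AT2G04700, the catalytic subunit of ferredoxin-thioredoxin reductase, at 0.968, AT1G03810 at 0.967 and AT4G14050, a pentatricopeptide repeat protein, at 0.960, with AT3G23940, a dihydroxyacid dehydratase, at -0.961. With strips centred these 4 correlations of L17 were 0.663, 0.554, 0.720 and -0.597. For S6 they were AT4G40080 at 0.957, CUTA (AT2G33740), a copper-binding protein, at 0.928 and AT1G54500, of the rubredoxin type, at 0.926, with the pentatricopeptide repeat protein AT3G22150 at -0.921. For S10 they were AILP1 (AT5G19140) at 0.886, AT1G62150 at 0.865 and AT3G46950 at 0.833, the last 2 of the mTERF family of organelle factors, with AT5G52530 at -0.911. With strips centred the correlations of L5, S6 and S10 with these most similar genes ran from 0.561 for AT1G62150 with S10 to 0.964 for AT2G30100 with L5. Similar profiles were common for L17, for which 9.05% of the 608 features reached a correlation above 0.9, against 2.63% for L5, 1.15% for S6 and 0 for S10. The correlations over 12 arrays hold the genotype difference. With genotype means removed, those of the most similar genes ran from 0.504 for AT4G19900 with L5 to 0.944 for AT4G40080 with S6. AT2G30100 and L5 correlated at 0.510 there. For the genes that ran opposite, the values with genotype means removed lay between -0.789 for AT5G52530 with S10 and -0.545 for AT3G23940 with L17.

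The wider set of plastid ribosomal proteins held 41 nuclear genes, of which 6 were measured by a feature with 1 gene, 2 of 14 in the small subunit and 4 of 27 in the large one. The other 2 were in the large subunit. AT1G29070 (L34) had intensities of 0.134 to 0.246 in flu, with a median of 0.194, and of 0.133 to 0.258 in WT, with a median of 0.183. The groups overlapped over nearly their whole range, and the log2 value was 0.51 ± 0.26 over 12 arrays (SE; limma adjusted p = 0.12), but -0.068 ± 0.28 with couples averaged and strips centred (limma adjusted p = 0.88). The value over 12 arrays also depended on the normalisation, at 0.055 for L34 with deposited values and 0.16 with array medians subtracted. Without WT arrays 1 and 2 the 12-array analysis gave 0.80 for L34 (limma adjusted p = 0.023), and without WT array 2 alone 0.66 (0.046). AT5G65220 (L29) was listed at 0 on 6 of 6 flu arrays and 5 of 6 WT arrays, with 0.00402 on the remaining WT array, so it gave no fold change. Of the 5 with values above the floor, 1 passed as higher and 3 as lower in the 12-array analysis, where 23.0% and 29.2% of all features did, and 1 passed in all 3 analyses, where 19.3% did.

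Among 14 genes for factors that help to assemble plastid ribosomes, 3 were measured. AT2G25870, the plastid homologue of the bacterial ribonuclease YbeY that trims ribosomal RNA, had 2 features, and their values lay on opposite sides of 0. One of them (A in the plot of changes) had intensities of 0.584 to 0.636 in flu, with a median of 0.601, and of 0.706 to 1.36 in WT, with a median of 0.880, and the log2 value was -0.57 ± 0.16 over 12 arrays (SE; limma adjusted p = 0.0099) and -0.49 ± 0.25 with couples averaged and strips centred (0.18). The other (B) had intensities of 0.446 to 0.552 in flu, with a median of 0.536, and of 0.282 to 0.421 in WT, with a median of 0.338. Its log2 change was 0.77 ± 0.13 over 12 arrays (SE; limma adjusted p = 3.5e-04) and 0.98 ± 0.17 with couples averaged and strips centred (0.0092), and it passed in all 3 analyses. In both features the flu and WT arrays did not overlap. In A flu lay below WT, as for 24.6% of all features, and in B above it, as for 12.5%. No direction can therefore be given for AT2G25870. PAC (AT2G48120), or PALE CRESS, which associates with the ribosomal RNA of the large subunit, averaged 0.350 ± 0.128 in flu and 0.375 ± 0.102 in WT (SD, n = 6 each), with a log2 value of 0.06 ± 0.25 (SE; limma adjusted p = 0.86) that was -0.14 as deposited and 0.14 with couples averaged and strips centred. AT5G46420, of the RimM family of small-subunit assembly factors, lay below the floor on all 12 arrays, at 0 on 6 of 6 WT arrays and at up to 0.0201 in flu. None of 15 plastid translation factors, such as the elongation and initiation factors, had a feature with 1 gene, and 3 features that list one of them together with other genes were not named.

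**Figure D4:**
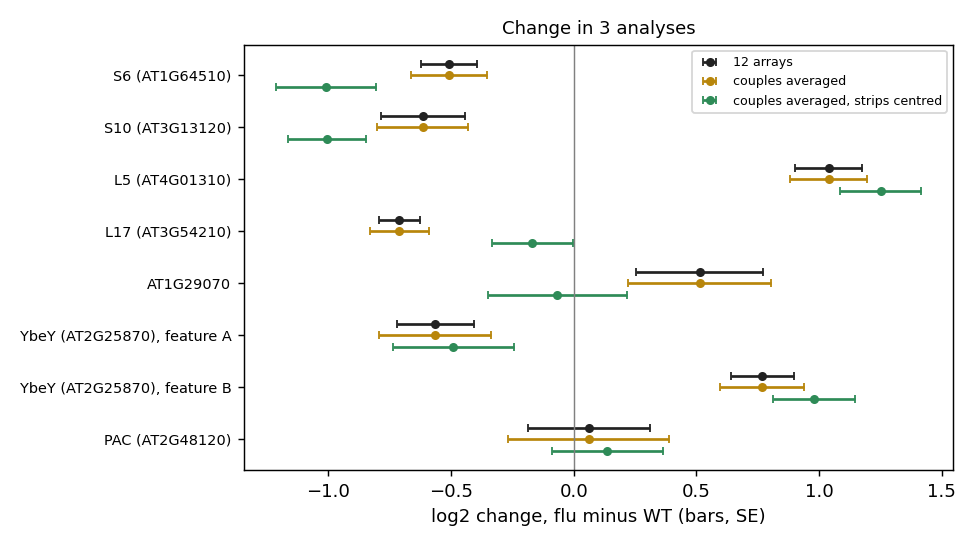
Log2 change (flu minus WT) with its SE for the 4 ribosomal protein genes and, below them, AT1G29070 (L34), both features of AT2G25870 (YbeY) and PAC, over 12 arrays (black), with couples averaged (ochre) and with couples averaged and strips centred (green). L5 stays between 1.04 and 1.25, S6 and S10 lie at -0.51 and -0.61 and near -1.00 with strips centred, and L17 lies at -0.71 or at -0.17.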

How the data were processed

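The deposited table holds 1 linear intensity per feature and array. The authors' scaling, background treatment and software are not given in the sources available, and the upper limit of 100 is read from the values. Of 3439 features, a platform table listed 692 with 1 gene, 870 with several, and left 1877 unlisted. Through gene identifiers, 690 of the 692 matched the RefSeq table of assembly TAIR10.1. No coordinates or sequences are given. The floor was the 1st percentile of the positive values. The moderated test of limma 3.58.1 (two-sided; R 4.3.3) was run over 12 arrays without a block, adjusted by Benjamini-Hochberg over all features at a threshold of 0.05, and was tested on simulated data. The simulated arrays were independent, without couples, pairs or strips, so they cannot show how those affect the p-values. With group means removed, flu and WT arrays of one number correlated at 0.368 to 0.539, so numbers were taken to pair arrays, and the replicate block was an alternative. The 3 analyses that define a rise or fall did not use it. Spearman correlations were 0.940 to 0.967 within flu couples and 0.893 to 0.942 between them, and 0.909 to 0.956 and 0.780 to 0.871 in WT. Genes, lists, couples and strips were chosen with earlier results of these data known. Named were the 4 genes, every other measured gene of the plastid ribosomal protein, translation and assembly lists, and for each of the 4 the 3 highest correlations and the lowest. Ribosomal proteins outside the plastid were not analysed here. Root, epidermis and seed markers (0 of 7, 4 and 6) were not measured. The number of arrays limits the precision.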

Additional observations from a re-analysis of the deposited data

How the results depend on the processing

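All analyses beyond 12 arrays were set with earlier results known, and those on strip width and on couples left out of the strip-centred analysis were added after seeing the data. L5 kept its direction and passed in all 42 alternatives run. These alternatives reuse the same 12 arrays, and the share of all features passing in every one of them is not given here. In single analyses that share was 52.2% over 12 arrays and 27.8% with couples averaged and strips centred. S10 did not pass with couples averaged (-0.61, limma adjusted p = 0.053) or with the couple as a random block (0.077). S6 did not pass with couples averaged (-0.51, 0.054) or with couples averaged and the replicate block (0.116). L17 did not pass with strips centred (-0.17; 0.19 over 12 arrays, 0.47 with couples averaged, 0.46 with the block too) or with strips of 2, 3, 12 or 6 shifted numbers (-0.15, -0.085, -0.27 and -0.17). Left out by couple in the strip-centred, couple-averaged analysis, S6 did not pass without flu arrays 1 and 2 (-0.91) or 3 and 4 (-1.00), and L17 ran from -0.27 to -0.091 and passed in none of 6 (-0.15, -0.19 and -0.16 without the flu couples in order). The number of passing features, 1796 over 12 arrays, was 1193 with couples averaged, 956 with strips centred too, 1177 with these and the replicate block, 1100 among the brighter features alone (S6 and S10 are too dim to be among them) and 339 among features with 1 gene, where fewer features were tested. The share of passes that were higher in flu was 44.0%, and 34.0% as deposited, where the median log2 change was -0.20. AT1G29070 turned to -0.068 with strips centred, with or without couples averaged or blocked, and PAC to -0.14 as deposited and -0.034 with array medians subtracted; leaving out single arrays moved PAC between -0.082 and 0.21, and it stood at -0.18 without flu arrays 1 and 2 and -0.14 without WT arrays 3 and 4. Why they turned was not tested. The replicate block over 12 arrays changed no call of the 4 genes. With the block in all 3 analyses S10 passed in each, as L5 did (limma adjusted p for S10 = 0.019, 0.025 and 0.010). Of all 3439 features 1966, 1306 and 1177 passed in these blocked fits, and the share passing in all 3 is not given here. S6 and L17 still missed the threshold in 1 analysis, S6 with couples averaged (0.116) and L17 with strips centred too (0.46).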
